A study of Mus musculus with 12 samples.

Results

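The sarcolemma excitability genes described here are the muscle chloride channel Clcn1, the sodium channel Scn4a, the potassium channels Kcnj2, Kcnj11 and Kcnn3, and the sodium pump components Atp1b1 and Fxyd1. The rule that picks them uses names and no measured value, but the names were put forward with earlier results of these data known. A member was followed through the transcript cluster that the platform annotation pairs with its symbol alone. This left 6 of the 7 genes, with 1 cluster each, among 30412 clusters that carry exactly 1 symbol. Scn4a was not analysed here, because no cluster in the annotation used was paired with it alone.

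The arrays measured quadriceps muscle of 12 male mice at 6 weeks of age on the C57BL/10 background. All of them, untreated mice included, had the genotype utrn+/-;mdx, in which dystrophin is lost through the mdx mutation and utrophin, its close relative, is reduced by loss of 1 allele. There were 3 mice in each of 4 groups, 1 array per mouse: prednisolone at 1.5 mg/kg per day in the drinking water; spironolactone at 100 mg/kg per day with lisinopril at 20 mg/kg per day; eplerenone at 200 mg/kg per day with the same lisinopril dose; and untreated mice on normal chow. Treatment ran between 4 and 6 weeks of age, and both combinations were supplied in medicated pellets. Prednisolone is a synthetic glucocorticoid, spironolactone and eplerenone block the mineralocorticoid receptor, and lisinopril inhibits angiotensin-converting enzyme. Neither healthy muscle nor a group on drug-free pellets was analysed here, so every difference lies within dystrophic muscle.

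A muscle fibre contracts when an action potential, carried by the voltage-gated sodium channel Scn4a (Nav1.4), spreads over its surface membrane and into the transverse tubules. At rest the membrane is held near its resting potential mainly by the chloride channel ClC-1, the product of Clcn1, and by inward rectifier potassium channels such as Kir2.1, the product of Kcnj2. The sodium pump restores the sodium and potassium gradients that each action potential runs down. In people, loss of ClC-1 function causes myotonia congenita, and loss of Kir2.1 function causes Andersen-Tawil syndrome with periodic paralysis.

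The sequences just upstream of 3 of the genes are shown because all 3 were higher after prednisolone; for the fourth such gene, Kcnj11, no sequence is printed. Each is the 250 bases before the annotated start, taken from RefSeq on GRCm38.p6 and written 5′ to 3′ on the strand of the gene: Clcn1 from chr6:42286435-42286684 (plus strand), Kcnj2 from chr11:111065914-111066163 (plus strand) and Fxyd1 from chr7:31054854-31055103 (minus strand). Capitals mark matches, on either strand, to AGAACA (the half-site letters of the glucocorticoid receptor), CAGCTG (an E-box letter pattern of muscle regulatory factors), TATAAA, or the MEF2 pattern.
Clcn1: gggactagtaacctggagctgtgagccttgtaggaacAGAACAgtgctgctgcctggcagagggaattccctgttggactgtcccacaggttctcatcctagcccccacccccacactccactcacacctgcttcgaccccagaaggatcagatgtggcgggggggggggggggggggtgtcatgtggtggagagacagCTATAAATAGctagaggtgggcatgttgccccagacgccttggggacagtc
Kcnj2: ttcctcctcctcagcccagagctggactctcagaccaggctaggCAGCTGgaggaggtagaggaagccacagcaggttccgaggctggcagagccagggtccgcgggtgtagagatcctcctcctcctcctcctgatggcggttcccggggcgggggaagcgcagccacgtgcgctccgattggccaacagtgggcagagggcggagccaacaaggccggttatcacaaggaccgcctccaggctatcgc
Fxyd1: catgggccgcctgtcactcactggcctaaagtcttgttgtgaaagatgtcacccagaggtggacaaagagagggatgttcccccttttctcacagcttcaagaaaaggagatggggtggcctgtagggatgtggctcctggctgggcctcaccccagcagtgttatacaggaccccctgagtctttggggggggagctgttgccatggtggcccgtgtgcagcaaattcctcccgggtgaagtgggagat
The Clcn1 window held 1 AGAACA, which began 213 bases before the start, and 1 MEF2 match that began 51 bases before it. That MEF2 match contains TATAAA, so the 2 patterns overlap there. In the Kcnj2 window the 1 match was a CAGCTG that began 206 bases before the start. None of the 4 patterns was found in the Fxyd1 window, nor in those of Atp1b1 and Kcnn3. Over all 32851 promoter windows of this length, 16.1% held AGAACA, 13% held CAGCTG, 12.4% held TATAAA and 2.92% held the MEF2 pattern. The GC content was 60.0% for Clcn1, 65.6% for Kcnj2 and 57.2% for Fxyd1, with a median of 52.4% over all windows. A match describes letters in the window and does not show that a factor binds there.

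Against untreated muscle, prednisolone-treated muscle had higher signals for 4 of the 6 measured genes: Clcn1, Kcnj2, Kcnj11 and Fxyd1. Kcnj2 differed most, by 2.16 ± 0.36 on the log2 scale (SE), a fold of 4.47, and Clcn1 followed with a fold of 2.32. Over all clusters, 6.39% passed the same threshold in this comparison (adjusted p under 0.05), and 3.22% passed it as higher. All 6 genes were brighter than the median cluster. With only the clusters above that median fitted, 1383 passed as higher and 1248 as lower. Over all clusters these counts were 979 and 963, so the share that passed was larger among brighter clusters. Kcnn3 and Atp1b1 did not pass. None of the 6 genes passed against untreated muscle after spironolactone plus lisinopril, where 0.0822% of clusters did, or after eplerenone plus lisinopril, where 0.0296% did. All tests are from limma, fitted to all 12 arrays and adjusted by the Benjamini-Hochberg method over the 30412 clusters, with n = 3 arrays per group. At an unadjusted p under 0.05, 4 of the 6 genes passed after prednisolone (21.6% of clusters), 3 after spironolactone plus lisinopril (16.2% of clusters) and 3 after eplerenone plus lisinopril (13.4% of clusters). The 3 comparisons share the untreated arrays and so are not independent. Because this is whole muscle, fewer cells of a type and less RNA per cell cannot be told apart.

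The 6 measured genes had a median log2 difference against untreated of 0.70 after prednisolone, 0.48 after spironolactone plus lisinopril and 0.47 after eplerenone plus lisinopril. The medians over all clusters were -0.01, -0.04 and -0.03 in the same order of treatments. Groups that did not overlap, with every treated array above every untreated array, were seen for 5 of the 6 genes after prednisolone, where 13.4% of all clusters showed this. They were seen for 2 of 6 after spironolactone plus lisinopril (7.35% of clusters) and for 5 of 6 after eplerenone plus lisinopril (7.7% of clusters). The study's design names a fold of 2. After prednisolone 2 of the 6 genes, Clcn1 and Kcnj2, reached it against untreated, as did 1.69% of all clusters in either direction. None of the 6 did after spironolactone plus lisinopril (0.792% of clusters) or eplerenone plus lisinopril (0.654% of clusters).

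**Figure D1:**
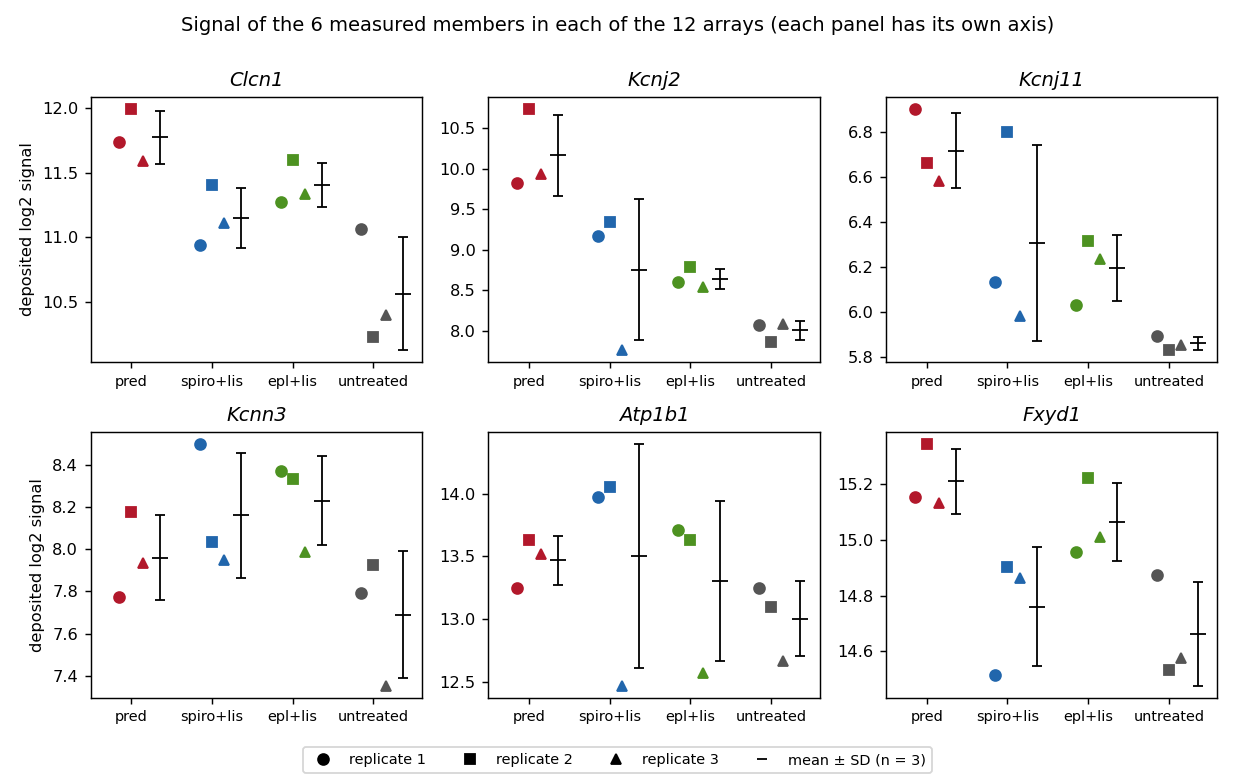
Deposited log2 signal of the 6 measured genes on each array (points; 3 mice per group), marker shape for the replicate number, and horizontal marks with error bars for group means ± 1 SD; each panel has its own axis. Kcnj2 lies between 9.82 and 10.74 in the prednisolone group, above all 9 other arrays, whereas for Kcnn3 the prednisolone and untreated arrays overlap.

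Clcn1 encodes the channel that carries most of the resting chloride conductance of skeletal muscle. Its log2 signal was 11.73, 11.99 and 11.59 in the prednisolone arrays, 10.94, 11.40 and 11.11 after spironolactone plus lisinopril, 11.27, 11.60 and 11.34 after eplerenone plus lisinopril, and 11.06, 10.23 and 10.40 in untreated muscle. All prednisolone and all eplerenone arrays were above the untreated ones, while 1 spironolactone array lay below the highest untreated array. Group means ± SD were 11.77 ± 0.20, 11.15 ± 0.23, 11.40 ± 0.17 and 10.56 ± 0.44 for the prednisolone, spironolactone, eplerenone and untreated groups. Clcn1 rose by 1.21 ± 0.21 after prednisolone (95% interval 0.76 to 1.67, adjusted p = 0.00898). It differed by 0.84 ± 0.21 after eplerenone plus lisinopril (adjusted p = 0.184) and by 0.59 ± 0.21 after spironolactone plus lisinopril (adjusted p = 0.228), which did not pass. In order, the level was highest after prednisolone, then eplerenone plus lisinopril, spironolactone plus lisinopril and untreated, and no pair of neighbours in this order differed past the threshold.

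Much of the spread of Clcn1 in untreated muscle came from replicate 1, at 11.06. Without it, Clcn1 passed against untreated after both combinations, by 0.84 after spironolactone plus lisinopril (adjusted p = 0.0389) and by 1.09 after eplerenone plus lisinopril (adjusted p = 0.0166). Leaving it out also raised the counts over all 30412 clusters. They went from 25 to 534 after spironolactone plus lisinopril and from 9 to 432 after eplerenone plus lisinopril. With replicate 1 as the sole untreated array, the prednisolone difference of Clcn1 was 0.71, and those after spironolactone and eplerenone with lisinopril were 0.09 and 0.34. These are values against 1 array, whose spread cannot be estimated, so no p-value is given. Replicates 2 and 3 of the untreated group also stood apart in 4 neutrophil marker genes (S100a8, S100a9, Retnlg and Csf3r), whose median deviation from the 12-array mean was 3.54 and 3.40 there and -0.32 in replicate 1. The mean log2 signal of these 4 markers ran from 6.84 to 7.47 after prednisolone and from 7.51 to 11.2 in untreated muscle. After prednisolone 1 of the 4 fell (4 at an unadjusted p under 0.05), beside 3.17% of all clusters (21.6% unadjusted, either direction). The part of this difference in the channel results was not tested.

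Kcnj2 encodes Kir2.1, an inward rectifier that sets the resting potential together with the chloride conductance. It reached 9.82, 10.74 and 9.94 after prednisolone, 9.17, 9.34 and 7.76 after spironolactone plus lisinopril, 8.61, 8.78 and 8.54 after eplerenone plus lisinopril, and 8.07, 7.87 and 8.08 in untreated muscle. Every prednisolone array exceeded all arrays of the other 3 groups, and every eplerenone array exceeded all untreated arrays. Spironolactone replicate 3, at 7.76, was the lowest of all 12, although the other spironolactone arrays were above every eplerenone array.

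The prednisolone group averaged 10.17 ± 0.50 and untreated muscle 8.01 ± 0.12 (SD). The difference of 2.16 had a 95% interval of 1.37 to 2.95 and an adjusted p of 0.0083. After spironolactone plus lisinopril (8.76 ± 0.87) it was 0.75 ± 0.36 (adjusted p = 0.328), and after eplerenone plus lisinopril (8.64 ± 0.12) it was 0.64 with an interval of -0.16 to 1.43 (adjusted p = 0.47). Leaving out spironolactone replicate 3 moved that group's difference to 1.25 (adjusted p = 0.051). Prednisolone set against spironolactone plus lisinopril gave 1.41 ± 0.36 (adjusted p = 0.0927), and against eplerenone plus lisinopril 1.52 ± 0.36 (adjusted p = 0.101). Both had groups that did not overlap, and neither passed. The order was prednisolone, spironolactone plus lisinopril, eplerenone plus lisinopril and untreated.

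Kcnj11 encodes Kir6.2, the pore of the ATP-sensitive potassium channel, which opens as the energy state of the fibre falls. The signals were 6.90, 6.66 and 6.58 after prednisolone, 6.14, 6.80 and 5.98 after spironolactone plus lisinopril, 6.03, 6.32 and 6.24 after eplerenone plus lisinopril, and 5.89, 5.83 and 5.86 in untreated muscle. All 9 treated arrays were above the 3 untreated ones, whose SD was 0.03. Kcnj11 rose by 0.85 ± 0.18 after prednisolone, a fold of 1.81 (95% interval 0.45 to 1.25, adjusted p = 0.0211). Its untreated signal lay near the median of all clusters on the arrays (5.70 to 5.81), and whether it stood above background was not analysed here. The differences after spironolactone plus lisinopril (0.44, adjusted p = 0.269) and eplerenone plus lisinopril (0.33, adjusted p = 0.451) did not pass. The order was prednisolone, spironolactone plus lisinopril, eplerenone plus lisinopril and untreated, and neighbours did not differ past the threshold. Leaving out spironolactone replicate 2, at 6.80, lowered that group's difference to 0.20. The prednisolone call was lost without any one of untreated replicate 2, untreated replicate 3, prednisolone replicate 1 or prednisolone replicate 2, with adjusted p values of 0.0658 to 0.0841.

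Kcnn3 encodes SK3, a calcium-activated potassium channel that in skeletal muscle is known from immature and denervated fibres. Its signals were 7.77, 8.17 and 7.94 after prednisolone, 8.50, 8.03 and 7.95 after spironolactone plus lisinopril, 8.37, 8.33 and 7.99 after eplerenone plus lisinopril, and 7.79, 7.92 and 7.35 in untreated muscle. The prednisolone and untreated arrays overlapped, whereas both combination groups lay above the untreated one. Kcnn3 differed from untreated by 0.27 ± 0.19 after prednisolone (95% interval -0.15 to 0.69, adjusted p = 0.458). The differences were 0.47 after spironolactone plus lisinopril (adjusted p = 0.267) and 0.54 after eplerenone plus lisinopril (adjusted p = 0.278). Prednisolone muscle was thus not the highest group here, with a difference of -0.20 against spironolactone plus lisinopril (95% interval -0.62 to 0.22) and -0.27 against eplerenone plus lisinopril. Neither of these passed. The eplerenone group was highest, followed by the spironolactone, prednisolone and untreated groups, with no pair past the threshold.

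Among the pump components, Fxyd1 encodes phospholemman, a small membrane protein that regulates the sodium pump in muscle. Its signals were 15.15, 15.34 and 15.13 after prednisolone, 14.51, 14.90 and 14.86 after spironolactone plus lisinopril, 14.96, 15.22 and 15.01 after eplerenone plus lisinopril, and 14.87, 14.53 and 14.58 in untreated muscle. Prednisolone and eplerenone arrays all exceeded the untreated arrays, and the spironolactone arrays overlapped with them. Fxyd1 rose by 0.55 ± 0.13 after prednisolone, a fold of 1.46 (95% interval 0.26 to 0.84, adjusted p = 0.0339). It differed by 0.40 ± 0.13 after eplerenone plus lisinopril (adjusted p = 0.263) and by 0.10 ± 0.13 after spironolactone plus lisinopril (adjusted p = 0.729). The level was highest after prednisolone, then eplerenone plus lisinopril, spironolactone plus lisinopril and untreated, and neighbours in this order did not differ past the threshold. The prednisolone call was kept under 7 of 18 alternative settings, against 17 for Kcnj2, 16 for Clcn1 and 11 for Kcnj11. These counts are only a rough guide to stability. Some settings ask for the fold named in the study's design, which Kcnj2 and Clcn1 reached. Fxyd1 and Kcnj11, with folds of 1.46 and 1.81, could not pass there, so the counts partly restate the size of the difference. The counts also include a fit with a lone untreated array, where calls do not speak to stability. Such settings were only part of the 11 in which Fxyd1 lost its call. It was also lost when only prednisolone and untreated arrays were fitted, and with the replicate block. Of the 4 calls, that of Fxyd1 was kept least often.

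Atp1b1 encodes the β1 subunit of the sodium pump, which helps the assembled pump reach the membrane. It gave 13.25, 13.63 and 13.52 after prednisolone, 13.98, 14.06 and 12.47 after spironolactone plus lisinopril, 13.71, 13.63 and 12.57 after eplerenone plus lisinopril, and 13.24, 13.10 and 12.67 in untreated muscle. All prednisolone arrays lay above the untreated ones, the closest pair being 13.25 and 13.24. In both combination groups replicate 3 was the lowest array, 1.03 below the mean of the spironolactone group and 0.73 below that of the eplerenone group. The difference from untreated was 0.46 ± 0.41 after prednisolone (95% interval -0.43 to 1.36, adjusted p = 0.573), 0.50 after spironolactone plus lisinopril (adjusted p = 0.55) and 0.30 after eplerenone plus lisinopril (adjusted p = 0.782). None passed. In order of level the groups were spironolactone plus lisinopril, prednisolone, eplerenone plus lisinopril and untreated, and no 2 groups differed past the threshold. The residual SD of Atp1b1 within groups, 0.58, was at percentile 99.0 of all clusters, and that of Kcnj2, 0.51, at percentile 98.4, whereas that of Fxyd1, 0.17, was at percentile 52.2.

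**Figure D2:**
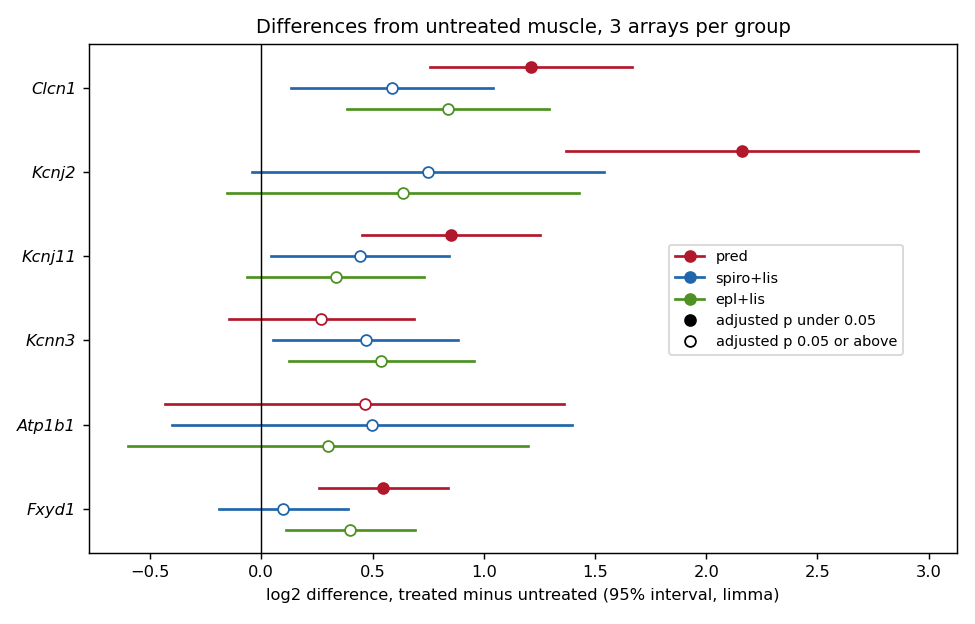
Log2 differences of the 6 measured genes from untreated muscle after each treatment, with 95% intervals from the limma fit (n = 3 arrays per group); filled points passed an adjusted p of 0.05. Of these differences, 4 passed, all after prednisolone, and the Atp1b1 intervals are the widest.

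A test across the 4 groups at once gave adjusted p values of 0.0424 for Kcnj2 and 0.0466 for Clcn1, and 1.93% of clusters passed it. The other measured genes did not pass, with 0.099 for Kcnj11, 0.0993 for Fxyd1, 0.279 for Kcnn3 and 0.774 for Atp1b1. Prednisolone was also set against each combination directly. Against spironolactone plus lisinopril 0 of the 6 genes passed (4 at an unadjusted p under 0.05), where 0.822% of clusters did (16.3% unadjusted). Against eplerenone plus lisinopril 0 passed (2 unadjusted), where 0.608% did (12.5% unadjusted). Clcn1 differed by 0.62 (adjusted p = 0.174) and Fxyd1 by 0.45 (adjusted p = 0.13) against spironolactone plus lisinopril, with no overlap between the groups. In all, 3 of the 6 genes lay above spironolactone plus lisinopril on every prednisolone array (13.8% of clusters) and 2 above eplerenone plus lisinopril (9.91% of clusters). Kcnj2 was the 1 gene with a fold of 2 in each of these comparisons, where 0.546% and 0.694% of clusters reached it.

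Spironolactone and eplerenone are both steroidal blockers of the mineralocorticoid receptor, and eplerenone carries, among other changes, an epoxide in its ring system. Their doses differed, so the 2 combinations are set side by side. The log2 difference of spironolactone plus lisinopril minus eplerenone plus lisinopril was -0.25 for Clcn1 (95% interval -0.70 to 0.20), 0.11 for Kcnj2 (-0.68 to 0.91), 0.11 for Kcnj11 (-0.29 to 0.51), -0.07 for Kcnn3 (-0.48 to 0.35), 0.20 for Atp1b1 (-0.70 to 1.09) and -0.30 for Fxyd1 (-0.59 to -0.01). Every adjusted p was 0.998. Fxyd1 was the 1 gene with groups that did not overlap, at 14.51 to 14.90 after spironolactone plus lisinopril and 14.96 to 15.22 after eplerenone plus lisinopril, a state that 5.64% of all clusters showed in that direction. No cluster of the 30412 passed in this comparison with limma (1365, or 4.49%, at an unadjusted p under 0.05). None of the 6 genes reached a fold of 2, as 0.0822% of clusters did. The intervals leave room for differences of either sign for each gene but Fxyd1.

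Within groups, Clcn1 and Fxyd1 varied together from mouse to mouse. Their arrays fell in the same order in all 4 groups, and this was so for 1 of the 15 pairs among the measured genes. Replicate 2 was highest for both genes in the 3 treated groups, and replicate 1 in untreated muscle. Kcnj2 and Atp1b1 shared their order in 2 of 4 groups, as did Clcn1 with Kcnj11, Kcnj11 with Fxyd1 and Kcnn3 with Atp1b1. In spironolactone replicate 3 both Kcnj2 and Atp1b1 had their lowest value of the 12 arrays (7.76 and 12.47). The array weight that limma estimated over all clusters was also lowest there, at 0.626, beside 0.632 for untreated replicate 1. That array also had the highest adipocyte marker signal of all 12, with a median deviation of 2.34 over 3 measured markers. The part of fat tissue in these values was not tested.

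**Figure D3:**
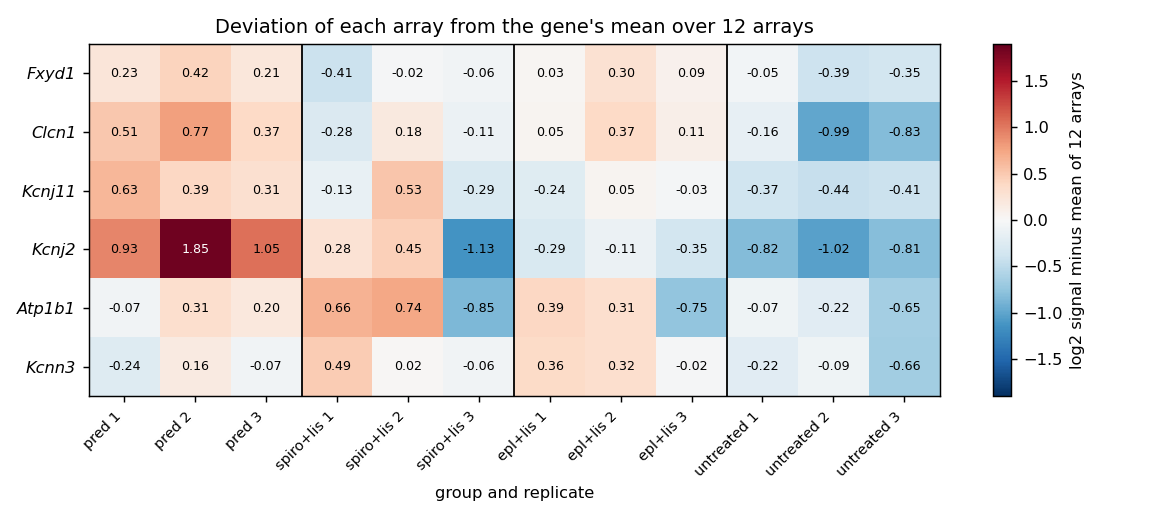
Deviation of each measured gene from its 12-array mean on the log2 scale, for every array, as colour and number (red above the mean, blue below). Prednisolone arrays are mostly above the mean and untreated arrays below it, and spironolactone replicate 3 stands out with low Kcnj2 and Atp1b1.

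For each measured gene, the 3 clusters with the most similar course over the 12 arrays were named from 18087 candidates, and as they were picked for likeness no test applies. Nearest to Clcn1 were Pdk2, a pyruvate dehydrogenase kinase, Apobec2 and Asb14, each at a Pearson r of 0.97. Kcnj2 was most like Crhr2, a receptor of corticotropin-releasing hormone family peptides, Myot, a Z-disc protein, and Grip2, each at 0.96. Fxyd1 was most like Gyg, the primer of glycogen synthesis (0.98), Araf (0.97) and Dcaf11 (0.96). Kcnj11 lay nearest to Pcyt1a (0.95), Tesk1 (0.94) and Mrps18a (0.93). Nearest to Atp1b1 were Mcu, the mitochondrial calcium uniporter (0.93), Tmem65 (0.92) and Ldhb (0.90), and nearest to Kcnn3 were Rnf217 (0.90), Pgm5 (0.89) and Neurl1b (0.89). These values share the 4 groups, so part of each r is the difference between groups. After group means were removed, r was 0.95 for Clcn1 with Pdk2, 0.98 for Fxyd1 with Gyg, 0.90 for Kcnj2 with Crhr2 and 0.93 for Atp1b1 with Mcu.

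The wider set of excitability and pump genes held 39 further names, of which 30 were measured. After prednisolone 5 of these 30 rose against untreated, 1 fell and 24 did not pass, and their median log2 difference was 0.19; over all clusters 3.22% rose and 3.17% fell. Those that rose were Kcnj12, Kcna7, Kcnma1, Kcnq5 and Atp1b4, and the gene that fell was Atp1b3. After spironolactone plus lisinopril 0 passed (9 at an unadjusted p under 0.05, where 16.2% of all clusters did; median 0.11), and after eplerenone plus lisinopril 0 passed (7 unadjusted, where 13.4% of all clusters did; median 0.12).

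Of the 15 measured potassium channel genes, 6 rose after prednisolone and none fell, Kcnj2 and Kcnj11 included, beside 3.22% of all clusters that rose. Kcnj12 encodes Kir2.2, a second inward rectifier. It had 7.89, 7.84 and 6.95 after prednisolone and 6.40, 5.93 and 6.44 in untreated muscle, a rise of 1.31 ± 0.23 (adjusted p = 0.0102) with no overlap. Kcna7, a voltage-gated channel of muscle and heart, rose by 0.70 ± 0.14 (adjusted p = 0.0164). Kcnq5, a Kv7 channel, rose by 0.65 ± 0.15 (adjusted p = 0.0283), and Kcnma1, the large-conductance calcium-activated channel, by 0.63 ± 0.16 (adjusted p = 0.041). Abcc8, a regulatory subunit that pairs with Kir6.2, differed by 0.26 (adjusted p = 0.0935), and Abcc9, the other such subunit, by 0.09 (adjusted p = 0.886).

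Among 9 measured sodium pump genes, 2 rose (Fxyd1 and Atp1b4) and 1 fell (Atp1b3), beside 3.22% and 3.17% of all clusters. Atp1b4 had 11.15, 11.39 and 10.63 after prednisolone, 10.23, 10.60 and 9.98 after spironolactone plus lisinopril, 10.62, 10.96 and 10.34 after eplerenone plus lisinopril, and 9.62, 9.24 and 9.24 in untreated muscle. All 9 treated arrays were above the untreated ones. It rose by 1.69 ± 0.23 after prednisolone (fold 3.23, adjusted p = 0.00366). In placental mammals the protein of this gene is known to reside in the inner nuclear membrane of muscle and does not act as a pump subunit. Atp1b3, the β3 subunit, had 13.17, 12.85 and 12.98 after prednisolone and 13.39, 13.89 and 13.63 in untreated muscle, so that all prednisolone arrays were lower, and it fell by 0.64 on the log2 scale (SE 0.12, adjusted p = 0.0157). Atp1b2, the β2 subunit, differed by 0.79 (adjusted p = 0.0569).

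The remaining families had few or no calls. Of 7 measured chloride channel and transporter genes, Clcn1 was the 1 that passed, with a family median of 0.04, and Lrrc8a, a volume-regulated anion channel subunit, differed by -0.46 (adjusted p = 0.0513). Of 5 measured sodium channel genes (accessory subunits and partners) 0 passed with limma and 3 did at an unadjusted p under 0.05, where 21.6% of all clusters did. The lowest adjusted p values there were 0.0887 for Fgf13 and 0.0933 for Scn4b.

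Marker genes of other cells and of regenerating fibres were followed in the same comparison. Over all clusters, 3.17% fell and 3.22% rose past the threshold in it, and 21.6% had an unadjusted p under 0.05. Over 6 macrophage markers the mean log2 signal ran from 11.6 to 12.0 after prednisolone and from 12.3 to 13.1 in untreated muscle. Of the 6, 2 fell (4 at an unadjusted p under 0.05). Over 3 measured fibroblast markers the mean was at most 16.1 after prednisolone and at least 16.3 in untreated muscle. Of the 3, 1 fell (2 unadjusted). Over 5 endothelial markers the mean ran from 10.6 to 10.8 after prednisolone and from 10.6 to 11.7 in untreated muscle. Of the 5, 1 fell (3 unadjusted). Over 4 regenerating fibre markers the mean ran from 11.6 to 12.5 after prednisolone and from 10.8 to 12.0 in untreated muscle. Of these 4, Myh8, the perinatal myosin heavy chain, rose, and the median log2 difference of the list was 0.75, beside 0.70 for the 6 channel and pump genes. Against untreated, the list median was 0.77 after spironolactone plus lisinopril, beside 0.48 for the 6 genes. It was 0.79 after eplerenone plus lisinopril, beside 0.47. Of 5 smooth muscle and pericyte markers 1, Rgs5, fell (1 unadjusted). The list was at 11.1 to 11.2 after prednisolone and 11.1 to 11.4 in untreated muscle. Of 3 measured adipocyte markers 0 passed (1 unadjusted), at 6.99 to 8.83 after prednisolone and 6.34 to 6.85 in untreated muscle, and of 3 measured Schwann cell markers 0 passed (0 unadjusted). Muscle fibre markers were high throughout, at 19.5 to 19.6, close to the highest value of the arrays (19.93). Acta1 and Myh4 sat at the highest value of every array, so they could show no rise. Of the 6 fibre markers 0 passed (1 unadjusted). In 2 of the 6 every prednisolone array exceeded every untreated array, as in 13.4% of all clusters. Myh1 was among these, at 19.27 to 19.46 after prednisolone and 19.04 to 19.08 in untreated muscle. The part of these markers' cells, and of regenerating fibres, in the channel differences was not tested.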

How the data were processed

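Quadriceps RNA of 12 mice was amplified, biotin-labelled and hybridised to 1 Affymetrix array per mouse. The authors deposited log2 expression values; the submitters' processing notes name RMA, Affymetrix Expression Console and Transcriptome Analysis Console. No program version or genome build is stated in what was read here. Values ran from 1.61 to 19.93, beyond the 16 that a 16-bit scanner allows, so a rescaling that is not described took place and folds hold on that scale only. Array medians ran from 5.70 to 5.81.

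Of 65587 clusters, the platform annotation listed 32530 and paired 30412 with 1 symbol (827 updated by gene ID). Group means of all 12 arrays were fitted with limma 3.58.1 in R 4.3.3 (package data.table, version 1.17.8), using eBayes (8 residual and 2.94 prior degrees of freedom), two-sided tests and Benjamini-Hochberg adjustment at 0.05. An exact permutation of 3 against 3 arrays could give no p under 0.1, so none was used. With 3 arrays per group, the number of arrays limits precision. No scan batch was known. The MEF2 pattern was YTAWWWWTAR, searched on both strands.

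Named were all members, the genes of each pathway list past the threshold or with the smallest p, and the 3 clusters with the highest r to each member. Members and lists were chosen with earlier results of these data known. Alternatives varied the normalization, filters, eBayes settings, groups fitted and arrays used.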

Additional observations from a re-analysis of the deposited data

How the results depend on the processing

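The 4 prednisolone calls kept their direction under all 18 alternatives. Several of these change the test, the filter or the threshold but not the difference itself, so their direction was fixed in advance. Differences ran from 1.87 to 2.33 for Kcnj2, 0.71 to 1.46 for Clcn1, 0.76 to 0.92 for Kcnj11 and 0.34 to 0.65 for Fxyd1. The number of measured genes past the threshold, 4, became 2 when only prednisolone and untreated arrays were fitted (Clcn1 adjusted p = 0.0538, Fxyd1 0.0742). It was also 2 at a fold of 2, with or without an unadjusted p. With untreated replicate 1 as the sole control, the lone array is assumed to vary like the other groups, so calls there do not speak to stability. The differences in that setting were 2.10 for Kcnj2, 0.82 for Kcnj11, 0.71 for Clcn1 and 0.34 for Fxyd1. Leaving out 1 array gave 2 to 4. For the other excitability and pump genes the count of 6 became 10 with array weights, 2 with the 2 groups alone, 2 under either fold rule, and 1 to 11 without 1 array. Over all clusters the prednisolone count of 1942 became 584 with the 2 groups alone and 456 to 2643 without 1 array. With array weights 1260 clusters rose and 1279 fell, against 979 and 963 as reported. At a fold of 2 alone 514 clusters passed. With an unadjusted p under 0.05 added to that fold, 133 rose and 343 fell.

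For prednisolone against spironolactone plus lisinopril, 1 measured gene passed under each fold rule. There 2 other genes passed with array weights, 1 among the brighter clusters and 0 to 1 without 1 array. Over all clusters, 166 reached the fold of 2, and 448 rose and 542 fell with array weights. Among the brighter clusters 248 rose and 371 fell, and 23 to 223 clusters passed without 1 array. Against eplerenone plus lisinopril, 1 measured gene passed under each fold rule and 1 with array weights (Kcnj2, 1.57, adjusted p = 0.0444). Without 1 array 0 did, and 0 to 1 other genes did. Over all clusters, 211 reached the fold of 2, 148 rose and 232 fell with array weights, and 27 to 137 passed without 1 array. Against untreated, 0 to 1 measured genes passed after either combination without 1 array. After eplerenone plus lisinopril 1 other gene passed each fold rule and 0 to 2 did without 1 array. Over all clusters, 199 reached the fold of 2 after eplerenone plus lisinopril. Without 1 array, 0 to 534 clusters passed after spironolactone plus lisinopril and 0 to 432 after eplerenone plus lisinopril. The test across 4 groups called 2 measured genes, 1 with robust eBayes, 0 over all clusters, 0 with the replicate block and 0 to 2 without 1 array.

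After group means were removed, same-numbered arrays of different groups correlated at a median r of 0.02 (-0.24 to 0.16), over 0.1 in 4 of 18 pairs. Arrays with different numbers had a median r of -0.01 (-0.30 to 0.27), over 0.1 in 12 of 36 pairs. Replicate numbers thus showed no pairing of the arrays. The replicate block left 3 measured genes past the threshold for prednisolone (Fxyd1 adjusted p = 0.0565).

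Sign changes concerned values that had not passed. Spironolactone minus eplerenone (each with lisinopril) turned for Kcnn3 to 0.011 with array weights, 0.036 without spironolactone replicate 3, and a value just above 0 without eplerenone replicate 1. Without 1 array it ran from -0.18 to 0.61 for Kcnj2 (below 0 without spironolactone replicate 1 or 2), from -0.14 to 0.27 for Kcnj11 (below 0 without spironolactone replicate 2) and from -0.17 to 0.71 for Atp1b1 (below 0 without spironolactone replicate 1 or 2, or eplerenone replicate 3). For Atp1b1, prednisolone against spironolactone plus lisinopril ran from -0.55 to 0.24 (above 0 without spironolactone replicate 1 or 2, or prednisolone replicate 1), and prednisolone against eplerenone plus lisinopril from -0.20 (without eplerenone replicate 3) to 0.37. Fxyd1 after spironolactone plus lisinopril turned to -0.11 with untreated replicate 1 alone. Beyond what a value above shows, the cause of these changes was not tested. The mean over several clusters per gene was not run, because each measured gene has 1 cluster.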

Other observations

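Channel regulators and genes known from denervated muscle were also followed after prednisolone. None of 8 measured channel regulators passed against untreated with limma (2 at an unadjusted p under 0.05, where 21.6% of all clusters did), with a median log2 difference of -0.03. Sgk1, a kinase that raises the activity of several channels and of the sodium pump, had 10.25, 10.26 and 10.15 after prednisolone and 11.55, 10.79 and 11.04 in untreated muscle. Its prednisolone arrays were all lower, by -0.91 ± 0.28 in the mean, but it did not pass (adjusted p = 0.0845). Mbnl2, a splicing regulator of the family lost in myotonic dystrophy, differed by -0.33 (adjusted p = 0.0988).

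Of 9 measured denervation genes 1 fell and 0 rose after prednisolone (2 at an unadjusted p under 0.05), beside 3.17% and 3.22% of all clusters, and the median log2 difference of the list was 0.45. Gadd45a, a stress and atrophy gene, had 8.01, 7.82 and 8.07 after prednisolone and 8.95, 8.54 and 9.87 in untreated muscle, and fell by 1.16 on the log2 scale (SE 0.25, adjusted p = 0.0234). The acetylcholine receptor subunits Chrnd (0.71, adjusted p = 0.127), Chrna1 (0.51, adjusted p = 0.458) and Chrng (0.57, adjusted p = 0.586) did not pass.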
